A study of Mus musculus with 8 samples.

Results

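The endoplasmic reticulum (ER) unfolded protein response was followed in lung endothelial cells (ECs) through 10 genes of its XBP1 and ATF6 branches, Xbp1, Atf6, Ern1, Herpud1, Sdf2l1, Creld2, Manf, Pdia4, Pdia6 and Calr. These genes were taken by symbol from a table of 54532 genes, leaving aside the heat shock families, and each symbol matched 1 row. All 10 were among the 15564 genes that were abundant enough to be tested. The libraries were bulk RNA-seq of lung ECs from wild-type (WT) mouse pups at postnatal day 14. For 4 normoxia libraries the pups had lived in room air with 21% O2 and for 4 hyperoxia libraries in 80% O2, in both cases since postnatal day 0. No other genotype or agent was in the design, and the ECs were what remained on CD31 beads after CD45-positive leukocytes had been taken out. Whether a library came from 1 pup or from several is not given in the sources used here, so a p-value measures the spread between these libraries.

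The ER folds secreted and membrane proteins, and unfolded protein inside it is sensed by transmembrane proteins. IRE1, encoded by Ern1, cuts Xbp1 mRNA, and the re-joined mRNA encodes an active transcription factor. ATF6 moves to the Golgi, where proteases free its cytosolic part, which is also a transcription factor. Both factors raise chaperones, disulfide isomerases and parts of ER-associated degradation (ERAD), which returns misfolded proteins to the cytosol. PERK, the other sensor, slows translation through eIF2α. ECs secrete much protein, including collagen IV and von Willebrand factor. Because both sensors are switched on after translation and IRE1 acts by splicing, the gene counts measure the amount of these mRNAs and not the activity of the sensors. Spliced and unspliced Xbp1 mRNA are counted together.

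The libraries held 16098086 to 18300730 counts and the 10 genes together 22624 to 24663 counts in each. On the first principal component of all tested genes, with 57.8% of the variance, the normoxia libraries lay between -43.6 and -28.5 and the hyperoxia libraries at 40.2 to 42.9, except hyperoxia 3 at 20.3. Results were therefore also computed without hyperoxia 3. Mitochondrially encoded genes held 0.864% to 1.05% of the counts in normoxia and 1.21% to 1.43% in hyperoxia, without overlap, and the part of this shift in the results was not tested.

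The 10 genes did not move as 1 group. In hyperoxia 3 of them rose (Atf6, Ern1 and Herpud1), 2 fell (Xbp1 and Creld2) and 5 were not past the threshold (Sdf2l1, Manf, Pdia4, Pdia6 and Calr). The threshold was an adjusted p under 0.05 in edgeR's quasi-likelihood test, with Benjamini-Hochberg adjustment over all genes tested, and it was passed upward by 18.5% and downward by 17.1% of all genes. The changes were small, between a fall of 27.4% and a rise of 20.4%. None of the 10 reached the fold limit of the study, a log2 fold change of 1 in either direction, which 6.98% of all genes reached together with the adjusted p. The median log2 fold change of the 10 genes was 0.05, beside -0.0040 over all genes tested. Groups did not overlap, with every library of one group on one side of every library of the other, for the same 5 genes. Of all genes, 17.8% were higher and 17.6% lower in hyperoxia without overlap. The libraries are bulk RNA, in which fewer cells of a type and less RNA per cell cannot be told apart.

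**Figure D1:**
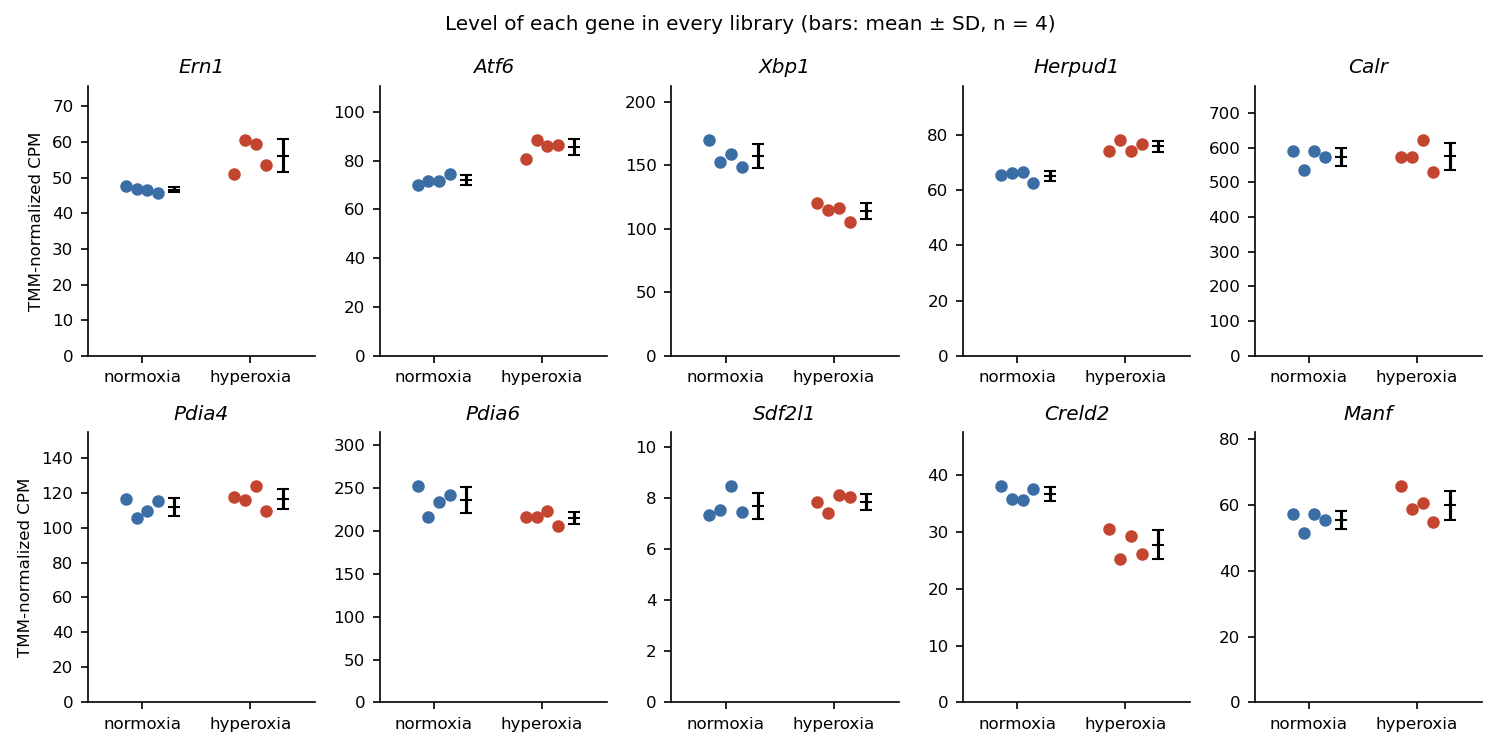
Level of each of the 10 genes in CPM (vertical axis from 0) in the 4 normoxia (blue) and the 4 hyperoxia (red) libraries, with the mean ± SD beside them. Every hyperoxia library lies below every normoxia library for Xbp1 and Creld2 and above for Atf6, Ern1 and Herpud1, while the groups overlap for the other 5 genes.

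Ern1 (ENSMUSG00000020715, chromosome 11, 106394650 to 106487852, minus strand, mouse build GRCm38 here and for all positions) encodes the kinase and RNase IRE1. It stood at 47.5, 46.8, 46.5 and 45.7 CPM in normoxia 1 to 4 and at 50.9, 60.5, 59.5 and 53.5 CPM in hyperoxia 1 to 4. CPM is the count scaled to a TMM-normalized library of 1000000 counts. The normoxia libraries lay close together and all below the lowest hyperoxia library, which was hyperoxia 1. The means were 46.6 ± 0.758 and 56.1 ± 4.65 CPM (SD, n = 4 each), so Ern1 rose by 20.4% (log2 fold change 0.27, SE 0.0615, edgeR adjusted p 0.00622).

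Atf6 (ENSMUSG00000026663, chromosome 1, 170704674 to 170867771, minus strand) encodes the sensor that is cleaved in the Golgi. Its levels were 70.0, 71.8, 71.7 and 74.6 CPM in the normoxia libraries and 80.7, 88.4, 86.0 and 86.4 CPM in the hyperoxia libraries, in the order of their numbers. As for Ern1, hyperoxia 1 was the lowest of its group and still above every normoxia library. The mean went from 72.0 ± 1.90 to 85.4 ± 3.28 CPM (SD, n = 4 each), a rise of 18.6% (log2 fold change 0.25, SE 0.0452, edgeR adjusted p 0.00173).

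Xbp1 (ENSMUSG00000020484, chromosome 11, 5520659 to 5525893, plus strand), the substrate of IRE1 and the transcription factor of its branch, went the other way and changed most of the 10. Normoxia 1 to 4 held 169.9, 152, 159 and 148 CPM and hyperoxia 1 to 4 held 120.1, 115, 116 and 106 CPM. The highest hyperoxia library was well below the lowest normoxia library. Xbp1 fell by 27.4%, from 157 ± 9.44 to 114 ± 6.18 CPM (SD, n = 4 each, log2 fold change -0.46, SE 0.0565, edgeR adjusted p 0.000127). The ratio of Xbp1 to Ern1 CPM within a library went from 3.37 ± 0.156 under room air to 2.05 ± 0.210 under hyperoxia (SD, n = 4 each). The CPM in it were not divided by gene length, so only its change between the groups can be read. That ratio was formed after the opposite changes had been seen and was not tested.

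The remaining 7 genes are targets of the response, and 4 of them carry in their proximal promoter an exact copy of an element through which ATF6, and for some of these elements XBP1, acts together with the CCAAT-binding factor NF-Y. The ER stress response element (ERSE) was searched as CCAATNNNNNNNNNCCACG and the related ERSE-II as ATTGGNCCACG, on both strands, in the RefSeq window from 250 bases before to 50 bases after the start of transcription. RefSeq windows of GRCm38.p6 were matched for 8 of the 10 genes, those other than Atf6 and Manf. Across the 32851 windows of all genes, 0.119% held ERSE and 0.0365% held ERSE-II. The 4 promoters are printed 5′ to 3′ on the strand of the gene, because they carry closely related elements while 1 of their genes rose, 1 fell and 2 were not past the threshold. Capitals mark ERSE-II in Herpud1 and ERSE in the others, and where ERSE lies on the opposite strand, in Creld2 and Calr, the capitals read from CGTGG to ATTGG.

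Herpud1, chr8:94386179-94386478, plus strand: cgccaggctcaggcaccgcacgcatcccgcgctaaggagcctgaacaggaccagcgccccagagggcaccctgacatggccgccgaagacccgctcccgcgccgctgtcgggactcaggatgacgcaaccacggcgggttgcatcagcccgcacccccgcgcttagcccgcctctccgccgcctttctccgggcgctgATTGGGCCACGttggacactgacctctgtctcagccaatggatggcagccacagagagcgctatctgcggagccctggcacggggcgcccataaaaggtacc
Creld2, chr15:88819396-88819695, plus strand: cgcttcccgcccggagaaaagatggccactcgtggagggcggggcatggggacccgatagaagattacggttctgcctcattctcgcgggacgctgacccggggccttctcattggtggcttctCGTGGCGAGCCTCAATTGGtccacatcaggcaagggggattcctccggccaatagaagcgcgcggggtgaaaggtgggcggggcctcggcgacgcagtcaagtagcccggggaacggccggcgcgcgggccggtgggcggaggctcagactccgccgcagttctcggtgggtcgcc
Pdia6, chr12:17266339-17266638, plus strand: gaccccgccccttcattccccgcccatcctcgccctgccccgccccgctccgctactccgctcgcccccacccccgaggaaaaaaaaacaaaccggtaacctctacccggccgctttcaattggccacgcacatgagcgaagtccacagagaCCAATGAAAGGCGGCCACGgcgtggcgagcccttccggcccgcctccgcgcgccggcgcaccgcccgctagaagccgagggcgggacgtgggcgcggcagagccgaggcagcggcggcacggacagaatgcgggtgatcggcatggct
Calr, chr8:84846882-84847181, minus strand: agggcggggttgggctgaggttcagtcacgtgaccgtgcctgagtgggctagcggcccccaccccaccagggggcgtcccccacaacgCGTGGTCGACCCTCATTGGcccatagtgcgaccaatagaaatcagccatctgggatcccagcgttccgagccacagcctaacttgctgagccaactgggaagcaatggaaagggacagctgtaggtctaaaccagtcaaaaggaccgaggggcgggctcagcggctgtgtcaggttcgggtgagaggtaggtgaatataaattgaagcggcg

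The element spans bases -52 to -42 from the start in Herpud1, -126 to -108 in Creld2, -98 to -80 in Pdia6 and -162 to -144 in Calr. The windows of Xbp1, Ern1, Sdf2l1 and Pdia4 held neither element in these letters. The UPR element TGACGTGG (UPRE), bound by XBP1 and ATF6, was in none of the 8 windows and in 0.676% of all windows, and its core GACGTG was in that of Pdia6 and in 6.38% of all windows. The core lies within TGACGTGG, so the 2 searches overlap. The CCAAT box alone, which is part of ERSE and of ERSE-II, was found in 6 of the 8 windows, all but those of Xbp1 and Ern1, and in 37.4% of all windows. The RefSeq start lay upstream of the start in the table by 82 bases for Pdia4, 18 for Xbp1 and 9 for Herpud1, and downstream of it by 56 bases for Ern1, 44 for Pdia6 and 3 for Calr, so positions counted from the table's start would shift by these lengths. A match of letters is a description and says nothing of a factor being bound.

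Herpud1 (ENSMUSG00000031770, chromosome 8, 94386438 to 94395377, plus strand), a membrane protein of the ERAD complex with a ubiquitin-like domain, was the target that rose. Its levels were 65.5, 66.1, 66.3 and 62.4 CPM in normoxia 1 to 4 and 73.9, 78.0, 74.1 and 76.7 CPM in hyperoxia 1 to 4. Both groups were tight, with an SD of 2.82% of the mean in normoxia and 2.68% in hyperoxia, and they were clearly apart. The rise was 16.3%, from 65.1 ± 1.84 to 75.7 ± 2.02 CPM (SD, n = 4 each, log2 fold change 0.22, SE 0.0436, edgeR adjusted p 0.00283).

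Creld2 (ENSMUSG00000023272, chromosome 15, 88819646 to 88826683, plus strand), an ER-resident protein with EGF-like repeats that can also be secreted under ER stress, was the target that fell. It stood at 38.0, 35.8, 35.5 and 37.6 CPM in the normoxia libraries and at 30.5, 25.1, 29.2 and 26.0 CPM in the hyperoxia libraries. All normoxia libraries were above all hyperoxia libraries, and the hyperoxia libraries were more spread. Creld2 fell by 24.5%, from 36.7 ± 1.23 to 27.7 ± 2.54 CPM (SD, n = 4 each, log2 fold change -0.41, SE 0.0702, edgeR adjusted p 0.00120).

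Manf (ENSMUSG00000032575, chromosome 9, 106838312 to 106891979, minus strand) is the other secreted member, a small protein of the ER lumen with trophic effects on neurons. It held 57.3, 51.4, 57.3 and 55.3 CPM in normoxia and 65.6, 58.6, 60.4 and 54.9 CPM in hyperoxia. Hyperoxia 4 fell within the normoxia range, while the other 3 lay above it, and the difference was not past the threshold (log2 fold change 0.11, edgeR adjusted p 0.185, 95% interval -0.02 to 0.25). Part of its count is uncertain, since 4.14% of its exon bases overlap Dcaf1 (51.8 CPM) on the opposite strand and 0.397% overlap Rbm15b (104 CPM) on its own strand, and the use of strand in counting is not given in the sources used here.

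Calr (ENSMUSG00000003814, chromosome 8, 84841850 to 84846934, minus strand) encodes calreticulin, the soluble lectin that holds folding glycoproteins and stores calcium in the ER. It was the most abundant of the 10, at 590.1, 534, 590.1 and 573 CPM in normoxia and 574, 573, 622 and 529.5 CPM in hyperoxia. The groups overlapped over most of their range, and both the highest and the lowest of the 8 libraries were hyperoxia libraries. The 95% interval of its log2 fold change, -0.12 to 0.13, is narrow around 0.01 (edgeR adjusted p 0.940).

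The disulfide isomerases Pdia4 (ENSMUSG00000025823, chromosome 6, 47796141 to 47813430, minus strand) and Pdia6 (ENSMUSG00000020571, chromosome 12, 17266545 to 17284770, plus strand) form and rearrange disulfide bonds in folding proteins. Pdia4 held 116, 105, 109.6 and 115 CPM in normoxia and 117, 116, 123 and 109.7 CPM in hyperoxia, with overlap (log2 fold change 0.06, edgeR adjusted p 0.386, 95% interval -0.05 to 0.18). Pdia6 held 252, 216, 234 and 242 CPM in normoxia and 217, 216, 223 and 206 CPM in hyperoxia. Normoxia 1, 3 and 4 were above every hyperoxia library, and normoxia 2 was not. Of its exon bases, 1.34% overlap the scarce Atp6v1c2 (1.79 CPM) on the opposite strand. The difference in Pdia6 was not past the threshold (log2 fold change -0.13, edgeR adjusted p 0.0807, 95% interval -0.25 to -0.01). Of the fits that left out 1 library, only that without normoxia 2 was past it (log2 fold change -0.17, edgeR adjusted p 0.0171). In the others the edgeR adjusted p ran from 0.0858 to 0.201.

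Sdf2l1 (ENSMUSG00000022769, chromosome 16, 17130138 to 17132383, minus strand) encodes a small partner of ER DnaJ proteins and of the chaperone BiP. It was the scarcest by count, with 7.35, 7.51, 8.45 and 7.46 CPM in normoxia and 7.82, 7.42, 8.13 and 8.04 CPM in hyperoxia. Normoxia 3 was the highest of the 8, and the groups overlapped. The 95% interval of its log2 fold change, -0.19 to 0.25, was the widest of the 10 (log2 fold change 0.03, edgeR adjusted p 0.845). Changes within these bounds remain compatible with these libraries.

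**Figure D2:**
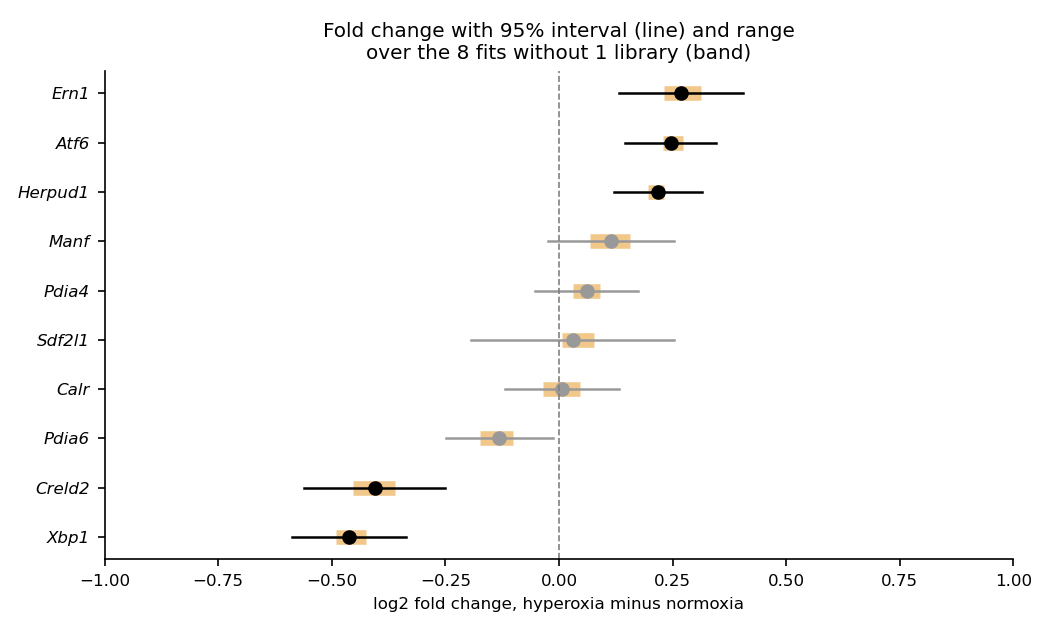
Log2 fold change of each gene, hyperoxia minus normoxia (horizontal axis), with its 95% interval (line) and the range over the 8 fits that leave out 1 library each (orange band). Black marks an adjusted p under 0.05 and grey the rest. Xbp1 (-0.46) and Creld2 (-0.41) lie left of 0 and Herpud1 (0.22), Atf6 (0.25) and Ern1 (0.27) right of 0, and no band of these 5 reaches 0.

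The 5 calls held in each of the 8 fits that left out 1 library. Over those fits the log2 fold change ran from -0.49 to -0.42 for Xbp1 and from -0.45 to -0.36 for Creld2. It ran from 0.23 to 0.31 for Ern1, from 0.23 to 0.27 for Atf6 and from 0.20 to 0.23 for Herpud1. The largest adjusted p in these fits was 0.0218, for Ern1.

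To compare levels between genes, CPM was divided by gene length in kilobases. On this scale Calr was far above the rest, with 199 CPM per kilobase in normoxia and 199.5 in hyperoxia, in the 99.0th percentile of the genes tested. In normoxia it was followed by Pdia6 (63.0), Xbp1 (48.4), Pdia4 (46.6), Herpud1 (27.9), Creld2 (26.9), Manf (15.7), Atf6 (7.80), Sdf2l1 (6.94) and Ern1 (5.70), all as mean CPM per kilobase. The libraries of Xbp1 and Pdia4 overlapped in normoxia, as did those of Herpud1 and Creld2 and those of Atf6 and Sdf2l1, so the order within these pairs is not set. In hyperoxia the order of Xbp1 and Pdia4 was clear, with Pdia4 at 48.6 above Xbp1 at 35.2 CPM per kilobase and no overlap. Xbp1 then overlapped Herpud1 (32.4), Creld2 (20.3) overlapped Manf (17.0), and Sdf2l1 (7.09) overlapped Ern1 (6.87). The transcription factor and the effectors were thus more abundant per length than both sensors, except for Sdf2l1.

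**Figure D3:**
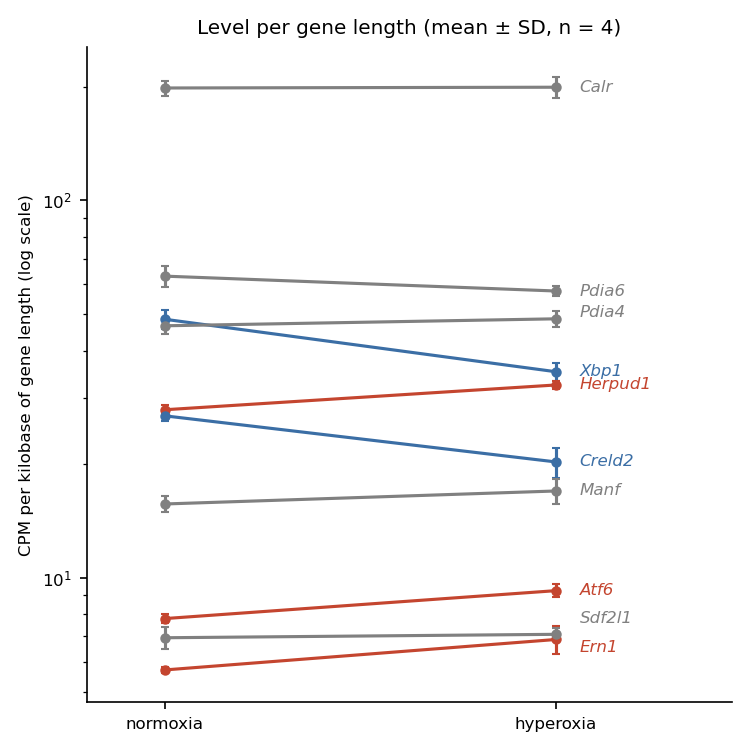
Mean level per gene length (CPM per kilobase, log axis) with its SD in the 4 normoxia and the 4 hyperoxia libraries. Lines in red mark genes that rose, in blue genes that fell and in grey the other 5. The line of Xbp1 starts beside Pdia4 in normoxia and ends beside Herpud1 in hyperoxia.

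The other genes of the ER response were read from lists by role. Their counts stand beside shares of 18.5% higher and 17.1% lower over all genes tested. No list was tested against these shares. The ER chaperones of the heat shock families contained 8 genes, of which 2 fell, 0 rose and 6 did not pass, with a median log2 fold change of -0.03. Hspa5, which encodes BiP, the chaperone that holds the sensors inactive and is a textbook target of ATF6, fell from 642 ± 21.1 to 501 ± 16.7 CPM (log2 fold change -0.36, edgeR adjusted p 0.000144, SD, n = 4 each). Dnajb9, a BiP cofactor and target of XBP1, fell from 57.4 ± 2.42 to 39.9 ± 2.65 CPM (log2 fold change -0.53, edgeR adjusted p 7.04e-05). Like Xbp1 and Creld2, both had groups without overlap. The ratio of Calr to Hspa5 CPM, formed after the values were seen, was 0.890 ± 0.0313 in normoxia and 1.15 ± 0.0424 in hyperoxia.

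Genes that process the sensors, relatives of ATF6 and subunits of NF-Y numbered 11, of which 10 were tested. Of these 4 fell, 0 rose and 6 did not pass. The most abundant per length, the Xbp1 ligase Rtcb, stood at 91.9 ± 7.67 and 89.8 ± 3.59 CPM (log2 fold change -0.03, edgeR adjusted p 0.714). The largest fall was that of Nfya (log2 fold change -0.38, edgeR adjusted p 0.000415), which encodes a subunit of NF-Y. The other 3 that fell, named after their values were seen, were Mbtps1 (log2 fold change -0.32, edgeR adjusted p 0.000249), the site-1 protease that cleaves ATF6, and the other NF-Y subunits Nfyb (log2 fold change -0.27, edgeR adjusted p 0.0125) and Nfyc (log2 fold change -0.19, edgeR adjusted p 0.0191). Nfyc was not past the threshold without hyperoxia 2 or without hyperoxia 4 (edgeR adjusted p 0.0610 and 0.0526), nor with the replicate block (0.0619) or with no filter on low counts (0.0920).

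Of the 14 genes in the list of the PERK branch 6 were higher, 2 were lower and 6 were not past the threshold. Its most abundant gene per length, the eIF2α phosphatase subunit Ppp1r15a, fell from 548 ± 71.0 to 382 ± 35.8 CPM (log2 fold change -0.52, edgeR adjusted p 0.00148). Its largest change was that of the stress-induced Nupr1, a scarce mRNA, from 1.43 ± 0.719 to 5.15 ± 2.21 CPM (log2 fold change 1.84, edgeR adjusted p 0.00545). That call was lost with either marker score as a covariate, and the direction turned with the alveolar epithelial score (log2 fold change -0.57, edgeR adjusted p 0.834, and 0.89, adjusted p 0.492, with the fibroblast and mural score). Several members of this list are also induced by p53 or by amino acid shortage. Besides Nupr1, those higher were Sesn2 (log2 fold change 1.48, edgeR adjusted p 1.27e-06), Asns, Bbc3, Ero1l and Tnfrsf10b. Besides Ppp1r15a, Chac1 was lower. Eif2ak3, the gene of PERK itself, was not past the threshold, nor were Atf4, Ddit3, Atf3, Trib3 and Ppp1r15b. These genes were named after their values were seen.

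Of 12 other disulfide isomerases and oxidases 0 rose and 1 fell, Pdia5 (log2 fold change -0.21, edgeR adjusted p 0.00651), and the most abundant per length, P4hb, did not pass (log2 fold change 0.07, edgeR adjusted p 0.219). Of 9 genes of the calnexin cycle 1 rose, the membrane lectin Canx, from 293 ± 16.1 to 344 ± 9.39 CPM (log2 fold change 0.23, edgeR adjusted p 0.00448), and 0 fell. Canx is the membrane counterpart of calreticulin, whose gene Calr did not pass. Of 10 other secreted or soluble proteins of the ER or Golgi 1 rose and 1 fell. The calcium-binding Calu rose from 414 ± 22.6 to 517 ± 12.6 CPM (log2 fold change 0.32, edgeR adjusted p 0.000538). Sdf4 fell (log2 fold change -0.18, edgeR adjusted p 0.00713) and was named after its value was seen.

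The ERAD list, to which Herpud1 belongs by function, had 4 of 19 genes higher and 2 lower, with a median log2 fold change of 0.05. Edem1, a mannosidase-like target of XBP1, rose most, from 81.1 ± 1.29 to 103 ± 3.61 CPM (log2 fold change 0.34, edgeR adjusted p 0.000143), while the most abundant per length, the lectin Os9, did not pass (log2 fold change -0.04, edgeR adjusted p 0.604). Herpud2, the paralog of Herpud1, was 1 of the 2 that fell (log2 fold change -0.20, edgeR adjusted p 0.00277), and it was named after its value was seen. Of 17 translocon and signal peptidase genes 3 rose and 1 fell, and the largest rise was that of the signal recognition particle receptor Srpr (log2 fold change 0.27, edgeR adjusted p 0.000873). Of 17 genes of traffic between ER and Golgi 6 rose and 0 fell. Kdelr3, a receptor that returns escaped ER proteins, had the largest rise, from 4.50 ± 0.751 to 6.51 ± 0.282 CPM (log2 fold change 0.53, edgeR adjusted p 0.0138), and its abundant paralog Kdelr2 did not pass (log2 fold change -0.06, edgeR adjusted p 0.422). In these lists 5 calls besides Nfyc were lost in some fits without 1 library, those of Sec61a1 and Sec63 in the translocon list, Sec31a in the traffic list, Selenos in the ERAD list and Ero1l in the PERK list, and the other calls held in all 8. The same 6 calls were lost under the replicate block and in 1 to 8 further fits with another normalization, filter, tool or gene set, Ero1l most often and in DESeq2 too (adjusted p 0.0818). Edem2 was lost with no filter on low counts (edgeR adjusted p 0.0546).

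**Figure D4:**
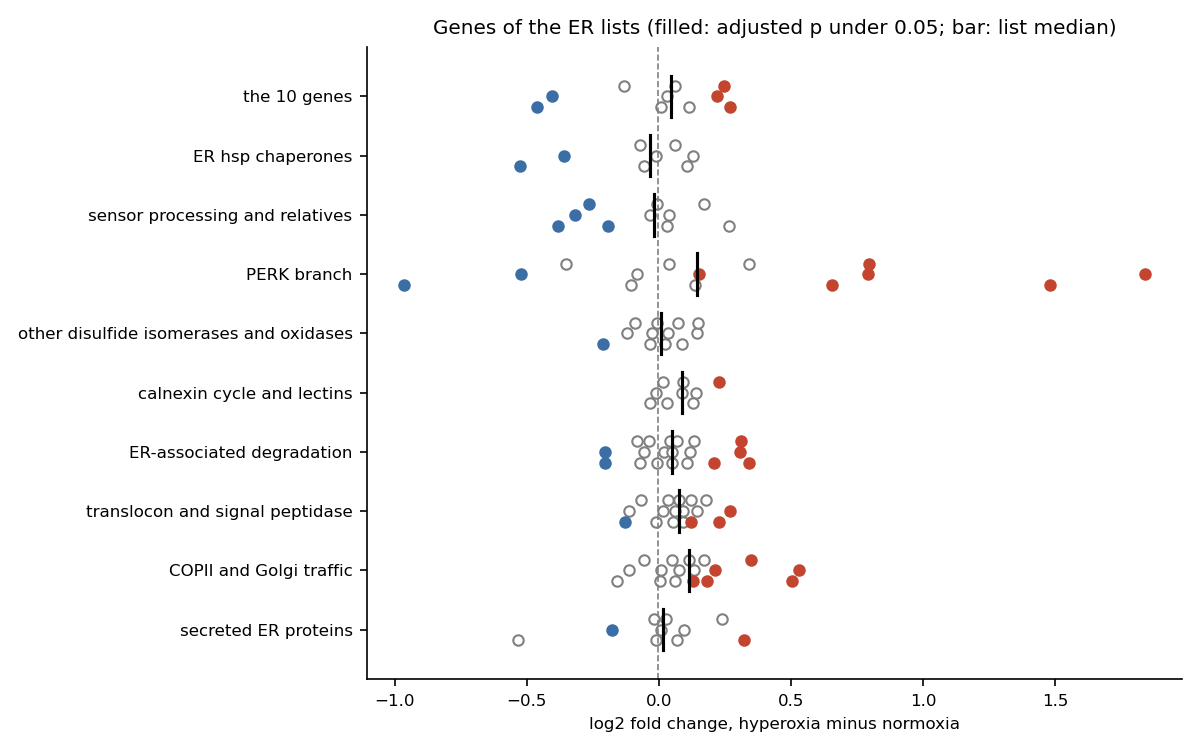
Log2 fold change, hyperoxia minus normoxia (horizontal axis), of every tested gene in each ER list (rows), with filled points for an adjusted p under 0.05 (red higher, blue lower), open points for the rest, a black bar at the list median and a dashed line at the median of all genes tested. The medians lie between -0.03 and 0.14. Filled points on both sides of 0 are seen among the 10 genes and in the PERK, ERAD and translocon lists. They are also seen in the row labelled secreted ER proteins, which includes Golgi proteins.

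Genes whose promoter holds ERSE or ERSE-II moved in both directions. Of 49 such genes 27 were tested, and 3 rose and 8 fell. That is 11.1% and 29.6%, beside 19.9% and 18.2% of the 10902 tested genes with a RefSeq window, and the median log2 fold change was -0.08 beside 0.0029. The 27 include Herpud1, Creld2, Pdia6 and Calr, and without them 2 of 23 rose and 7 fell. Canx and Zfp57 rose besides Herpud1, and Hspa5, Acacb, Gm46430, Hnrnpa3, Lgalsl, Rbm39 and Spats2l fell besides Creld2, all named after their values were seen. Of 113 tested genes with UPRE, 26 rose and 17 fell. That is 23% and 15%, near the 19.9% and 18.2% of the tested genes with a RefSeq window. These counts are descriptions and no test was run on them.

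Many markers of alveolar, fibroblast and mural cells also differed between the groups. Bulk counts do not show which cells the marker RNA came from. Pan-endothelial markers were high in all libraries, with a summed level of 17990.1 to 19000.2 CPM in normoxia and 18178 to 19145 CPM in hyperoxia (5 of 12 higher, 3 lower). All 12 markers of alveolar type 2 (AT2) cells, which secrete surfactant, rose, and they summed to 298 to 444 CPM in normoxia and 909 to 2735 CPM in hyperoxia, led by Sftpc (log2 fold change 3.40, edgeR adjusted p 4.88e-05). Of 10 alveolar type 1 (AT1) markers 8 rose and 1 fell. The most abundant, Cav1 and Emp2, are also expressed by ECs, and the sum was 2684 to 3192 CPM in normoxia and 2678 to 3131 CPM in hyperoxia. Fibroblast markers (5 of 8 tested higher, 0 lower, led by Fn1) summed to 432 to 650.1 and 669 to 1310.1 CPM, and mural markers (6 of 9 higher, 0 lower, led by Pdgfrb) to 26.6 to 53.3 and 49.1 to 114 CPM. Plasma and B cell markers (0 of 7 tested past the threshold, led by Ighm) summed to 116 to 287 and 145 to 248 CPM and macrophage markers (1 of 8 higher, 1 lower, led by Ptprc) to 134 to 256 and 138 to 229 CPM. Airway secretory markers were close to absent, at 2.02 to 3.76 and 2.91 to 3.72 CPM in all, led by Scgb3a1, with 1 of the 2 tested lower and Bpifa1 without a count.

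Hyperoxia 3 held the least AT2 marker RNA of its group. It had a summed level of 909 CPM, beside 2357 to 2735 CPM in the other 3 libraries. Its levels of Xbp1 (116 CPM), Creld2 (29.2 CPM), Atf6 (86.0 CPM), Ern1 (59.5 CPM) and Herpud1 (74.1 CPM) lay within the range of those 3 libraries for all 5 genes. Without hyperoxia 3 the log2 fold changes were -0.47, -0.43, 0.24, 0.24 and 0.23 in the same order. Calr, Pdia4, Pdia6 and Sdf2l1, which were not past the threshold, were each highest within hyperoxia in this library.

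With the mean log2 CPM of the AT1 and AT2 markers as a covariate in the fit, 0 of the 10 genes were past the threshold in edgeR, and 3 (Xbp1, Atf6 and Ern1) had an unadjusted p under 0.05, as did 1996 of all genes tested. That score shared 87.6% of its variance with the group, so the fit had little left to estimate the group from. The log2 fold changes in it were -0.52 (SE 0.168) for Xbp1, -0.27 (SE 0.204) for Creld2, 0.31 (SE 0.134) for Atf6, 0.42 (SE 0.172) for Ern1 and 0.13 (SE 0.128) for Herpud1. Of the 34 calls in the lists of other ER genes 33 were lost in that fit and that of Sesn2, in the PERK list, was kept. Among the lost were Hspa5 (log2 fold change -0.31, edgeR adjusted p 0.368) and Dnajb9 (-0.69, adjusted p 0.0907), and 2 genes turned direction, Nupr1 (-0.57, adjusted p 0.834) and Selenos (-0.22, adjusted p 0.743). With the mean log2 CPM of the fibroblast and mural markers as the covariate 26 of the 34 calls were lost and 0 turned. The part of RNA from other cells in these changes was not tested beyond these values.

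**Figure D5:**
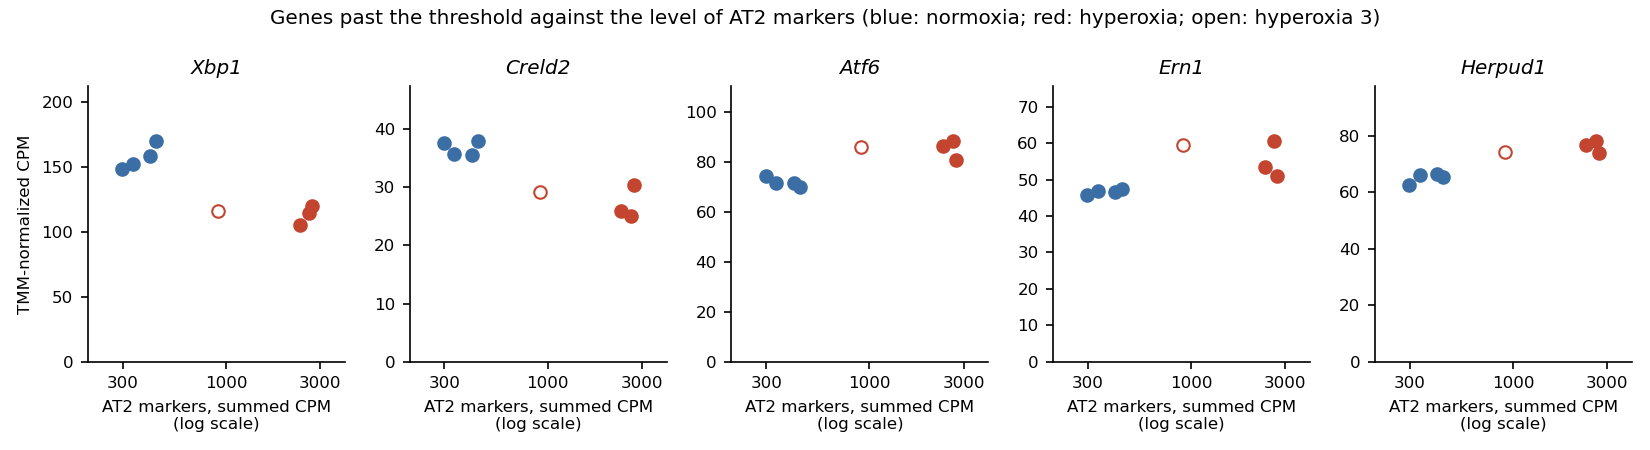
CPM of the 5 genes past the threshold (vertical axes, from 0) against the summed CPM of the 12 AT2 markers (horizontal axis, log scale) in the 4 normoxia libraries (blue) and the 4 hyperoxia libraries (red), with hyperoxia 3 as an open circle. Hyperoxia 3 lies between the groups in AT2 markers and among the hyperoxia libraries in each of the 5 genes.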

How the data were processed

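Lung ECs of pups were profiled in 4 normoxia and 4 hyperoxia libraries by bulk RNA-seq. Groups and replicate numbers were taken from the sample titles, and nothing in them says that equal numbers pair libraries or that the libraries come from separate pups, so p-values measure the spread between these libraries. The authors deposited a table of raw gene counts, 1 column per library, and a table of FPKM for the same genes. The submitters' processing notes name HISAT2 2.0.5, featureCounts 1.5.0-p3 and build mm10. The handling of strand and of reads with several matches is not given in the sources used here. The gene coordinates and lengths of the 10 genes equalled those of GENCODE M21 (GRCm38). The deposited FPKM could be rebuilt from the counts, gene lengths and library totals up to a constant for each library, within a relative deviation of 4e-08 where a count exceeded 20, so FPKM served only as an alternative.

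Counts were tested with edgeR 4.0.16 in R 4.3.3 by the quasi-likelihood test (TMM, filterByExpr, group as the only term), with Benjamini-Hochberg adjustment over 15564 genes. The study used DESeq2, which was run as an alternative (version 1.42.0), as was limma 3.58.1. Log2 fold changes are hyperoxia minus normoxia, and SEs and 95% intervals follow from the F statistic. Library totals ran from 16098086 to 18300730 counts, and the 10 genes together held 22624 to 24663 counts per library. Libraries of 1 group differed by more than counting noise (chi-square per degree of freedom 4.99 to 18.1). Each was kept as a replicate, although this spread does not show that the libraries came from separate pups. The scripts were tested on simulated data.

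The 10 genes, the lists and the rule for naming genes were chosen with earlier results of these data known. All 10 genes are named, and of each other list the tested gene with the highest level per length and the 1 with the largest absolute log2 fold change past the threshold, with Hspa5 added. A second row named Ddit3 had no count in any library and was left out. Promoter windows are those of RefSeq on GRCm38.p6. Alternatives were other normalizations, filters and tools, log2 FPKM with a pseudocount of 0.1 or 1, fits without each library in turn, a block by replicate number, marker scores as covariates and protein-coding genes only. Protein sequences were not used here.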

Additional observations from a re-analysis of the deposited data

Results flagged for a closer look

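Of 36 groups of 4 libraries examined, the 10 genes and 8 marker sums in each condition, 2 held a library whose gap to the nearest other exceeded the limit that chance exceeds in about 1 of 20 groups. Sdf2l1 stood at 8.45 CPM in normoxia 3 and at 7.35 to 7.51 CPM in the other 3 normoxia libraries. The summed level of the mural markers was 53.3 CPM in normoxia 1 and 26.6 to 30.2 CPM in the other 3. No cause was tested for either.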

How the results depend on the processing

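All 22 alternatives kept the direction of the 5 genes past the threshold, and 20 of them, all but the marker scores as covariates, kept each past it. The number of the 10 genes past the threshold was 5 to 6 when 1 library was left out, with 4526 to 5445 of all genes. It was 6 under upper quartile normalization, library totals alone and protein-coding genes only, where Pdia6 passed (log2 fold change -0.15 in each). With the alveolar epithelial score as covariate 0 of the 10 genes and 241 of all genes passed, and with the fibroblast and mural score 1 of the 10, Xbp1 (log2 fold change -0.52), and 1415 of all genes. The fold changes of the other 4 in the latter fit were -0.33 for Creld2, 0.27 for Atf6, 0.27 for Ern1 and 0.16 for Herpud1. Both scores move with the group, which widens the SEs. With the replicate block the same 5 genes passed and 4792 of all genes did, and libraries of equal number did not deviate together (correlations of -0.14 to 0.12, with 1 of 8 libraries closest to its own number). Calr, not past the threshold in any fit, changed sign in 5. Sdf2l1 had the fewest counts of the 10 genes, with 120 in normoxia 1, and the widest 95% interval.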
